A study of Mus musculus with 47 samples.

Results

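Skeletal muscle of NZO/HlLtJ mice, an inbred strain known as New Zealand Obese, was compared between a 10% fat+fiber diet and a 44% fat+fiber diet, separately in females and in males, and the diet effect was then compared between the sexes. The quantity examined was the female log2 fold change (44% against 10% fat) minus the male one, called the diet-by-sex difference here. The 16 libraries whose titles name NZO/HlLtJ were taken from the 47 libraries of the series: 4 females on 10% fat, 4 females on 44% fat, 4 males on 10% fat and 4 males on 44% fat. The other 31 libraries, 16 of C57BL/6J and 15 of CAST/EiJ mice with both sexes and both diets, entered the fit as further groups. All mice were labelled wild type. Diets began when the mice were 6 weeks old, the 44% diet being described as high in fat and sugar, and gastrocnemius muscle was collected at 15 weeks. The labels give every library its own sample number but do not say that each came from a separate animal, so the tests measure the spread between these samples.

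NZO/HlLtJ mice become obese on ordinary diets, and males of the strain are more prone to diabetes than females. Muscle takes up much of the glucose and fatty acids cleared after a meal. A rise in fatty acids activates the PPAR nuclear receptors, which induce genes for fat uptake, mitochondrial fat burning and the enzyme that blocks glucose oxidation. Obesity has also been linked with collagen deposition and macrophages in muscle, and cholesterol-making enzymes are set by the SREBP transcription factors. These pathways were examined through lists of genes, chosen with earlier results of these data known.

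Total expected counts ran from 26.0 M to 84.8 M per NZO/HlLtJ library, with a median of 39.6 M (M, mega). The sex-linked transcripts matched the labelled sex in 16 of 16 libraries. Gastrocnemius is a mostly fast-fibred calf muscle, and its markers were checked: Myh4, the fastest myosin heavy chain, lay between 56647 and 91329 CPM (counts-per-million of the library) and slow Myh7 between 537 and 1956 CPM. One library stood apart: replicate 4 of the females on 10% fat held 260 CPM of summed lymphocyte markers, while the highest sum among the 12 libraries of the other groups was 1.49 CPM. Replicate 1 of the same group had the highest brown adipocyte sum, 237 CPM, against at most 148 CPM in the other groups. Much of every sum was Cox8b, at 87.5 to 126 CPM in all 16 libraries. In replicate 1 Ucp1 was 79.0 CPM and Cidea 25.4 CPM, against medians of 0.25 and 0.75 CPM in the 16 libraries. Only Cox8b and Pank1 of the list were highest in another library. Values without replicate 4 of that group are given for the matrix, macrophage and ribosomal lists. Values without both libraries are given for the matrix, ribosomal, cholesterol and fatty acid synthesis lists. The sample numbers fall into 3 stretches, called runs here, whose meaning the labels do not give. Run 1 held 2 libraries of each group, but run 2 held females on 10% fat and males on 44% fat, and run 3 held females on 44% fat and males on 10% fat, so a shift between runs 2 and 3 cannot be told apart from the diet-by-sex difference within those libraries. A run term estimated over all 3 strains was included, and values from run 1 alone are given beside the pooled ones for the lists described and for the genes shown library by library.

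No gene passed the test of the diet-by-sex difference. Of 17159 genes tested with edgeR's quasi-likelihood test, 0 had a Benjamini-Hochberg adjusted p under 0.05, the smallest adjusted p was 0.228, and 1108 genes (6.46%) had an unadjusted p under 0.05. Among those, 596 (3.47%) had the higher diet effect in females and 512 (2.98%) the lower. Limma voom also called 0 genes, whereas DESeq2 called 22. The median standard error of a gene's difference was 0.25 on the log2 scale. Everything below on the diet-by-sex difference of a gene is therefore a value with its error, not a call. Across the genes, the female and male diet effects had opposite signs in 44% (7552 of 17159). The diet-by-sex differences from run 1 alone and from runs 2 and 3 had a correlation of -0.12 across these genes, which are not independent replicates, so run 1 and the other libraries did not order the genes alike.

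A list was described as opposite where its median diet effect had different signs in the sexes and at least 66.7% of its tested members did too. This held for 6 of 48 lists: extracellular matrix, macrophage markers, cholesterol synthesis, satellite and fibro-adipogenic progenitor markers, and the proteins of the large and of the small ribosomal subunit. The PPAR targets came close, with 13 of 21 members (61.9%) of opposite sign. Closer still were the polyamine and androgen list (9 of 14, 64.3%) and the angiogenesis and hypoxia list (12 of 19, 63.2%). The muscle atrophy list had 11 of 18 (61.1%). All of these had medians of different signs in the sexes. Over all genes the median diet-by-sex difference was -0.01, against 0.66 for the matrix list, 0.65 for macrophage markers, 0.36 for cholesterol synthesis, 0.03 for the progenitor markers, -0.25 and -0.28 for the large and small ribosomal subunits, and -0.63 for the PPAR targets.

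**Figure D1:**
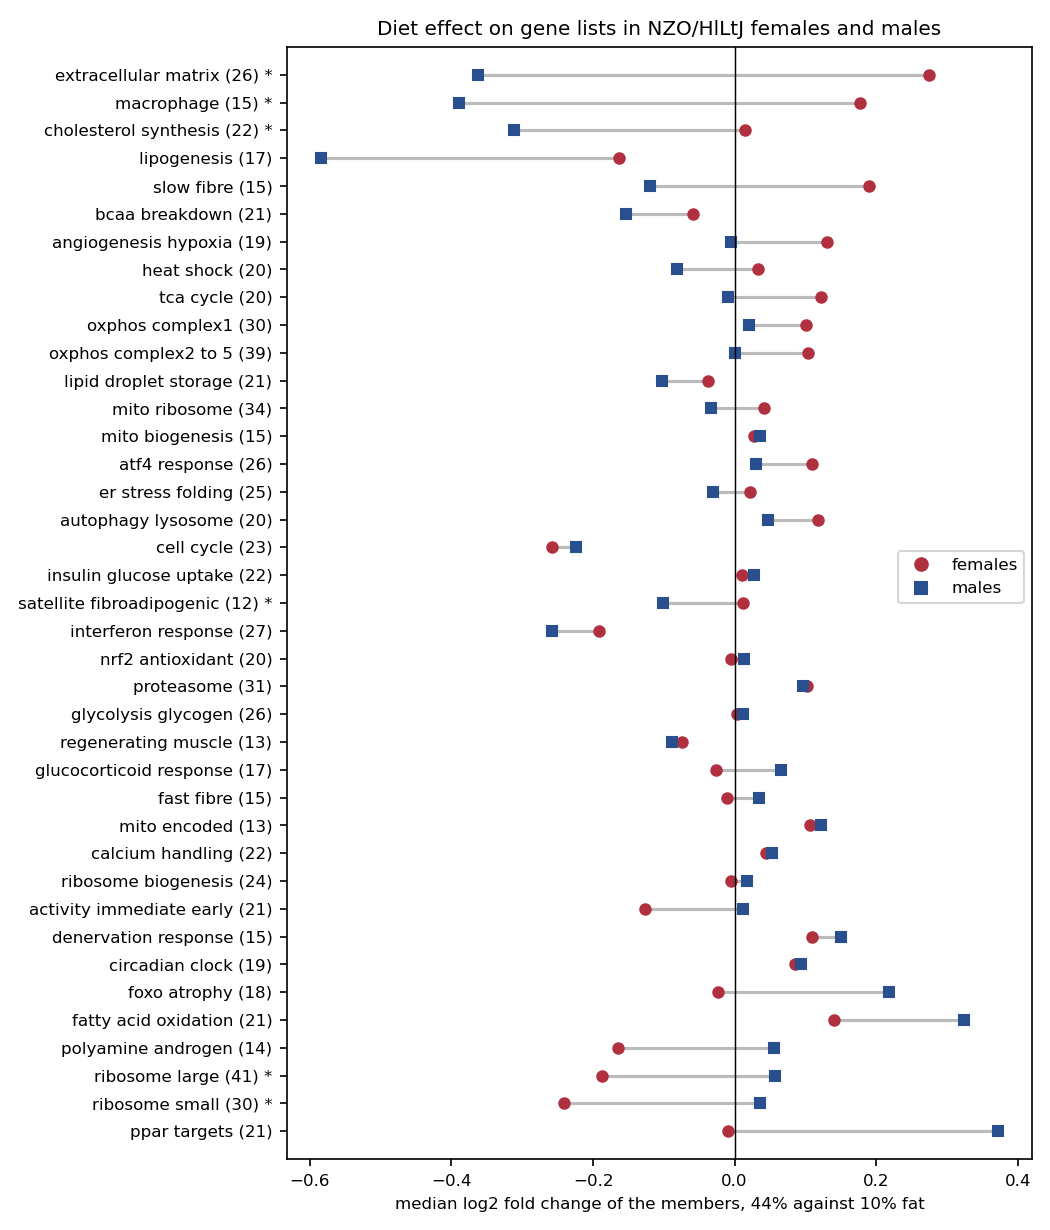
Median log2 fold change (44% against 10% fat) of the tested members of the gene lists (most cell marker lists not drawn) in NZO/HlLtJ females (red circles) and males (blue squares), with the number of members in brackets and an asterisk where the list met the rule for opposite signs. Lists are ordered by the median diet-by-sex difference, and matrix genes stand at the top (females 0.27, males -0.36) and PPAR targets at the bottom (females -0.01, males 0.37).

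Collagens and other matrix genes stood higher on 44% fat in females and lower in males. All 26 genes of the list were tested and 0 passed the adjusted threshold in either sex or in the difference, where the smallest adjusted p was 0.322. The diet effect was positive in 24 of 26 genes in females (median 0.27) and negative in 23 of 26 in males (median -0.36). An unadjusted p under 0.05 was reached by 8 of 26 in females, all positive (4.9% of all genes), and by 14 of 26 in males, all negative (4.48% of all genes). For the difference it was reached by 17 of 26 members (65.4%, against 6.46% of all genes), all 17 with the higher effect in females. Taken by diet, the median female minus male log2 difference was -0.22 on 10% fat and 0.32 on 44% fat, where 4 matrix genes were called higher in females (2.41% of all genes) and 0 lower.

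Col15a1, a basement membrane collagen of muscle and capillaries (chr4:47208161-47313167, plus strand, GRCm38), had the smallest p of the list. Its level was 69.9, 54.3, 49.3 and 50.4 CPM in the females on 10% fat and 88.2, 88.8, 61.5 and 62.3 CPM in those on 44% fat. In males it was 79.3, 59.4, 71.4 and 64.3 CPM on 10% fat and 39.3, 57.4, 74.7 and 46.2 CPM on 44% fat. The 10% and 44% libraries overlapped in both sexes, since 1 female on 10% fat lay above 2 on 44% fat and replicate 3 of the males on 44% fat lay among the controls. The diet effect was 0.48 ± 0.14 (SE) in females and -0.40 ± 0.15 in males, a difference of 0.88 ± 0.21 (adjusted p = 0.322). Run 1 alone gave 1.05 and runs 2 and 3 gave 0.52. Without replicate 3 of the males on 44% fat the difference was 1.04 (adjusted p = 0.0409). That replicate was the highest of its group, so leaving it out enlarges the difference. Here and below, a left-out library is named for a gene's difference only where the adjusted p then fell under 0.05. Leaving out any other 1 library did not bring the difference of such a gene under that threshold. In each case named, the difference was larger in size without that library. Libraries whose removal shrank a difference are not named, so these passes are selected and lend the difference no support.

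Nid2 and Lamc1 were not on the list but were among the 10 genes with the smallest p and a higher effect in females. Nid2 encodes nidogen-2, which links laminin to collagen IV in basement membranes, and Lamc1 a laminin chain. Nid2 averaged 17.9 ± 2.62 CPM (SD, n = 4) and 24.2 ± 3.70 CPM in females on 10% and 44% fat, and 23.3 ± 3.33 and 17.996 ± 4.56 CPM in males. Its difference was 0.89 ± 0.21 (adjusted p = 0.228), 0.77 from run 1 and 0.90 from runs 2 and 3, and without replicate 3 of the males on 44% fat it was 1.01 (adjusted p = 0.0433). That of Lamc1 was 0.36 ± 0.10 (adjusted p = 0.443). Col6a1, a chain of the collagen VI that surrounds muscle fibres, lay between 105.6 and 123.0 CPM in females on 10% fat and at 166.0, 163.1, 120.4 and 121.2 CPM on 44% fat. In males Col6a1 was 130.8, 109.2, 141.4 and 126.2 CPM on 10% fat and 86.5, 109.3, 135.6 and 95.5 CPM on 44% fat. The 2 highest females were the run 1 libraries, while those of run 3 lay within the range of the controls. Its neighbour Col6a2 had a like difference, 0.73 ± 0.22, beside 0.72 ± 0.20 for Col6a1 (0.74 from run 1 and 0.34 from runs 2 and 3).

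The other collagens had differences of the same sign: 0.69 ± 0.21 for Col5a1, 0.76 ± 0.24 for Col5a3, 0.87 ± 0.32 for the fibrillar Col1a1 and 0.81 ± 0.30 for Col3a1. Col4a1 and Col4a2, the 2 chains of the common basement membrane collagen IV, are transcribed away from each other from starts 21 bases apart on chromosome 8 in the RefSeq annotation. Their differences were 0.62 ± 0.25 and 0.68 ± 0.23. The largest difference of the list, 1.66 ± 0.68, belonged to Timp1, an inhibitor of matrix-degrading proteases, at levels of only 0.24 to 1.68 CPM. Thbs1 and Tgfb1 were the members with a negative difference, -0.57 ± 0.44 and -0.30 ± 0.41, and decorin (Dcn) stood near zero at 0.03 ± 0.15.

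Promoters were searched because members of a list moved together. RefSeq promoter windows of 300 bases (250 before to 50 after the start, GRCm38.p6) were found for 18 of the 26 matrix genes. Of these, 11 (61.1%) held CCCTCCC on either strand, against 21.3% of 27025 genes. The motif was also in 37.5% of the PPAR windows and 36.4% of the macrophage ones. It was in 11.1% of the ribosomal and 6.25% of the cholesterol ones. In Col6a1 it occurs 5 times in the 110 bases before the start, at chr10:76726045-76726154 on the minus strand, where capitals mark CCCTCCC and the last 3 copies overlap.
Col6a1: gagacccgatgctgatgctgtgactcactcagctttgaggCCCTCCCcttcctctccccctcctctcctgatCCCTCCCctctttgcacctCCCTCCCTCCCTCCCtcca

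Run and library bore on the size of the matrix values. From run 1 alone the list's median difference was 0.74, with 25 of 26 genes positive, and from the contrast of runs 2 and 3 it was 0.24, with 20 of 26 positive. Without replicate 4 of the females on 10% fat it was 0.58, and without replicates 1 and 4 it was 0.63. The medians kept opposite signs in the sexes under all 32 alternative settings, from 0.18 to 0.35 in females and from -0.50 to -0.23 in males. In the 16 libraries the mean log2 CPM of the list was lowest in replicates 1 and 4 of the males on 44% fat, at 5.98 and 6.05, and highest in replicates 1 and 2 of the females on 44% fat, at 6.75 and 6.73. The remaining males on 44% fat, at 6.26 and 6.60, lay at the ends of the range of the males on 10% fat (6.30 to 6.59).

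**Figure D2:**
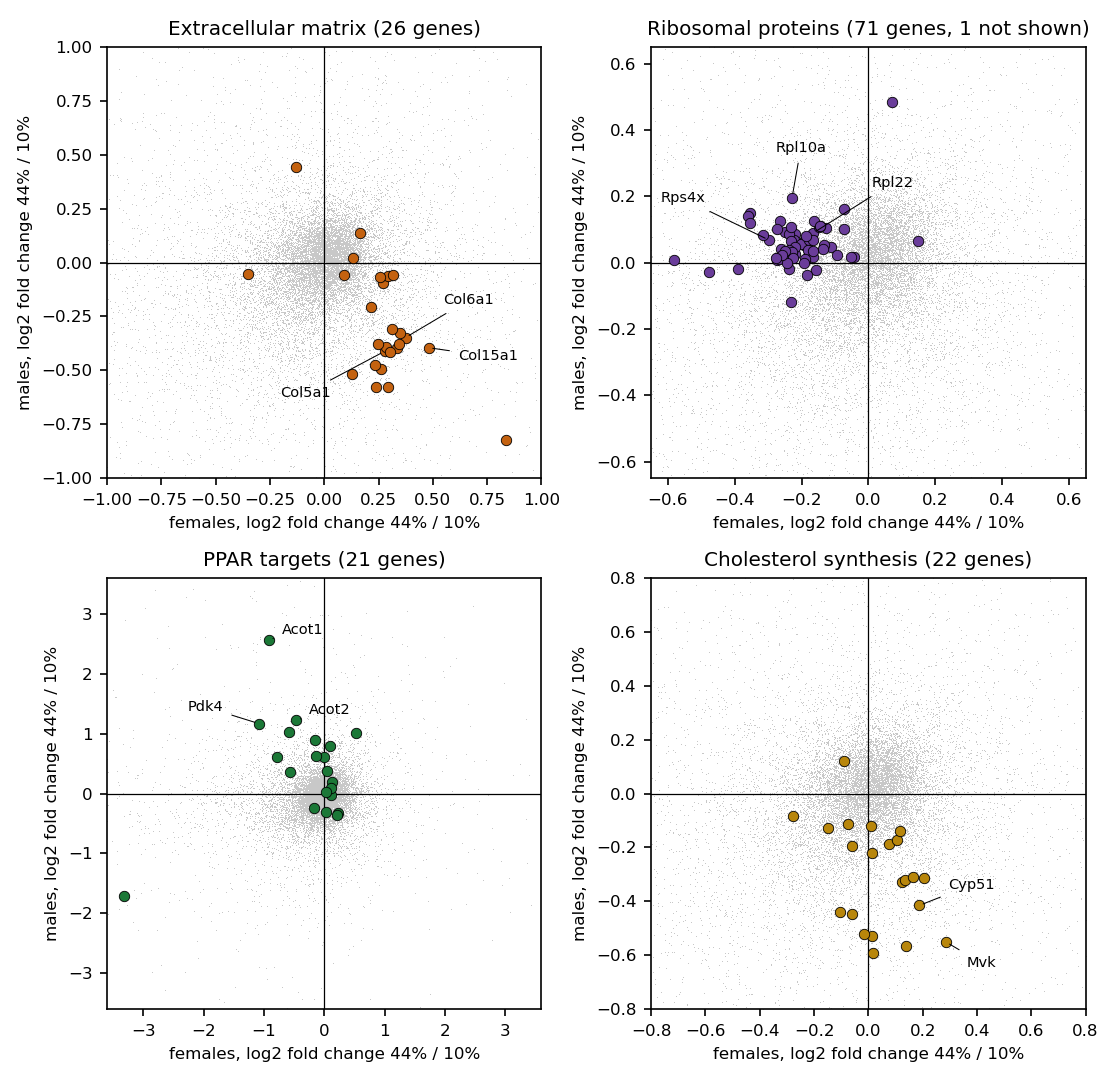
Diet effect (log2 fold change, 44% against 10% fat) in females (horizontal) and males (vertical) for the tested members of 4 lists, over all genes tested in grey, with 2 or 3 of the genes of smallest p labelled. Matrix genes lie in the lower right quadrant (higher in females, lower in males) and ribosomal proteins in the upper left (69 of 71 negative in females, 62 of 71 positive in males); Rps12 lies outside the axes of the ribosomal panel, at -2.31 in females and -0.01 in males.

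Macrophage markers had medians of the same signs as the matrix genes, but less steadily across the settings. Of the 16 markers 15 were tested and 0 passed the threshold, and 13 of 15 had a positive diet-by-sex difference. The medians were 0.18 in females and -0.39 in males. Opposite signs were found in 10 of 15 members, the fewest that meet the rule. The rule held under 17 of 32 settings, against all 32 for the matrix list. Adgre1, which encodes the macrophage surface protein F4/80, had a difference of 0.74 ± 0.34 (adjusted p = 0.745), the complement gene C1qa 0.65 ± 0.30 and the scavenger receptor Cd163 0.73 ± 0.37. Summed over the list, the markers came to 134 to 319 CPM in females on 10% fat, 131 to 231 CPM in females on 44% fat, 112 to 203 CPM in males on 10% fat and 89.8 to 173 CPM in males on 44% fat, so all groups overlapped. No marker was at 0 in all 16 libraries. The libraries with the lowest marker scores, replicates 1 and 4 of the males on 44% fat, were also the lowest in the matrix list. From run 1 alone the macrophage median was 1.08 and from runs 2 and 3 it was 0.03. Replicate 4 of the females on 10% fat, the library with lymphocyte markers, held the highest level of 5 of the 15 markers, among them Lyz2 at 142 CPM (median of the 16 libraries 41.4 CPM) and Mpeg1 at 38.4 CPM (median 3.99 CPM). Without it the macrophage median was 0.28 in females and -0.37 in males, a difference of 0.68 with 15 of 15 positive. In such whole-tissue samples, fewer cells of a type and less RNA per cell cannot be told apart.

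With the macrophage score as a covariate the matrix medians were 0.23 in females and -0.23 in males, with a median difference of 0.48. The part of macrophages, fibroblasts or connective tissue in the matrix values was not tested. Tendon markers differed by a median of 0.55, with 10 of 12 positive, with medians of 0.47 in females and -0.09 in males. Run 1 gave a tendon median of 0.42 and runs 2 and 3 gave 0.06. The satellite and fibro-adipogenic progenitor markers met the rule, which held for them under 17 of 32 settings. They had medians near zero, 0.01 and -0.10. Their median difference was 0.03 (0.41 from run 1 and -0.05 from runs 2 and 3). Among them Cd34, a surface protein of progenitors and endothelium, had a difference of 0.37 ± 0.14 and Chodl, of satellite cells, 0.65 ± 0.26. Smoc2, a matrix-binding protein, had -0.43 ± 0.20, Pi16 0.32 ± 0.23, Ly6a (Sca-1) 0.29 ± 0.21 and Dpp4 -0.26 ± 0.27. White adipocyte markers had negative medians in both sexes, -0.34 and -0.46. Their median difference was 0.06 (0.81 from run 1 and -0.29 from runs 2 and 3). Replicate 1 of the males on 10% fat held the highest level of 10 of the 13, and without it their male median was 0.10.

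**Figure D3:**
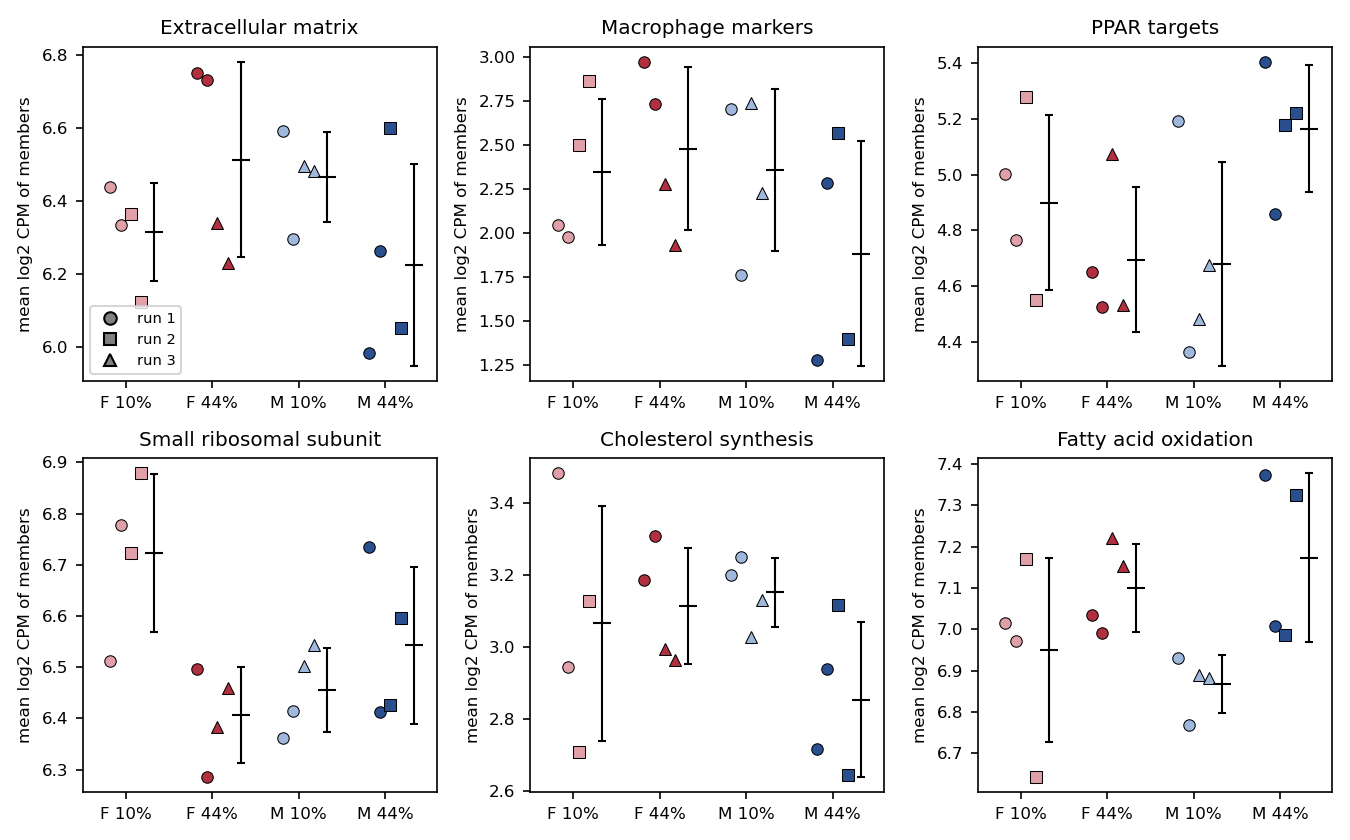
Mean log2 CPM of the tested members of 6 lists in each of the 16 NZO/HlLtJ libraries, with the mean and SD of each group of 4 at its right. Symbols give the run. Matrix and macrophage scores are lowest in 2 males on 44% fat (matrix 5.98 and 6.05), the PPAR score is highest there (5.403 in replicate 1), and the small ribosomal subunit is lower in all 4 females on 44% fat (6.29 to 6.50) than in all 4 on 10% fat (6.51 to 6.88).

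Genes of the fatty acid response went the other way, higher on 44% fat in males. Of the 22 PPAR targets 21 were tested, and 1, Acot1, was called higher in males (0.0583% of all genes were called in males) while 0 were called in females or in the difference. The medians were 0.37 in males and -0.01 in females. The diet effect was positive in 15 of 21 in males and in 10 of 21 in females. The difference was negative in 14 of 21 and positive in 7. An unadjusted p under 0.05 for the difference was reached by 9 of 21 (42.9%, against 6.46% of all genes), of which 8 had the lower effect in females (2.98% of all genes). The other of these 9 was Lpl, the lipase that releases fatty acids from lipoproteins, at 0.56 ± 0.27. The median difference was -0.52 from run 1 and -0.50 from runs 2 and 3. Over the 32 settings, which include leaving out each of the 16 libraries in turn, the median difference lay between -0.79 and -0.42. The rule for opposite signs held under 11 of them.

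Acot1 and Acot2 encode the cytosolic and the mitochondrial acyl-CoA thioesterase, near-identical neighbours on chromosome 12, so that reads may be divided between them with error. Acot1, named after its values were seen because it is under 5 CPM, had the smallest unadjusted p of all genes for the difference, 1.48e-05. It stood at 0.951, 2.75, 2.51 and 1.19 CPM in females on 10% fat and at 0.647, 0.688, 2.56 and 0.843 CPM on 44% fat. In males Acot1 stood at 0.702, 0.615, 1.48 and 0.917 CPM on 10% fat and at 8.05, 1.89, 2.49 and 6.39 CPM on 44% fat. Every male on 44% fat lay above every male on 10% fat, while the female groups overlapped. Acot1 rose in males by 2.57 ± 0.48 (adjusted p = 0.0166), its female effect was -0.92 ± 0.47 (adjusted p = 0.455), and the difference was -3.48 ± 0.70 (adjusted p = 0.228), -3.71 from run 1 and -1.95 from runs 2 and 3. The difference of Acot1 passed when replicate 3 of the females on 44% fat (adjusted p = 0.0126), or replicate 2 (0.0256) or 3 (0.0409) of the males on 44% fat, was left out. The male call was lost when replicate 1 or 4 of the males on 44% fat was left out, among 11 of 32 settings that ended it.

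Acot2 was 14.1, 16.7, 19.6 and 10.2 CPM in females on 10% fat and 7.69, 8.96, 16.4 and 12.6 CPM on 44% fat. In males Acot2 was 10.7, 10.7, 15.8 and 10.4 CPM on 10% fat and 37.8, 18.6, 18.3 and 33.3 CPM on 44% fat. The males of the 2 diets did not overlap, as in 1.75% of all genes in that direction, and the females did. Its diet effect was 1.23 ± 0.26 in males (adjusted p = 0.0653) and -0.46 ± 0.26 in females, a difference of -1.69 ± 0.39 (adjusted p = 0.228), -2.19 from run 1 and -0.92 from runs 2 and 3.

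Pdk4, the kinase that shuts off pyruvate oxidation, ranged from 228 to 2310 CPM in females on 10% fat and from 556.5 to 2610.6 CPM in males on 44% fat, and the groups of each sex overlapped. Its difference was -2.25 ± 0.73 (adjusted p = 0.556), -2.07 from run 1 and -1.68 from runs 2 and 3. Ucp3, a mitochondrial carrier induced by fatty acids, differed by -1.61 ± 0.60, the lipid droplet protein Plin5 by -1.05 ± 0.43, Cpt1a, which passes fatty acids into mitochondria, by -0.77 ± 0.30, and Mlycd, which removes the inhibitor of that step, by -0.63 ± 0.23. Of 16 PPAR targets with a promoter window, 6 (37.5%) held AGGTCA on either strand, against 16.04% of all genes, and 0 held 2 copies of it with 1 base between, against 0.0444%.

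Slc27a1, the fatty acid transport protein of muscle, was 56.3, 53.5, 64.1 and 46.2 CPM in females on 10% fat and 47.2, 43.2, 58.1 and 52.1 CPM on 44% fat. In males Slc27a1 was 50.6, 40.6, 47.3 and 42.1 CPM on 10% fat and 92.3, 53.5, 61.3 and 71.2 CPM on 44% fat. The female groups overlapped and the male groups did not. The difference of Slc27a1 was -0.83 ± 0.21 (adjusted p = 0.356) and that of Slc25a42, the mitochondrial carrier of coenzyme A, was -0.64 ± 0.17 (adjusted p = 0.444). Run 1 gave -0.91 and -1.01 for the 2 genes, and runs 2 and 3 gave -0.55 and -0.20. Slc25a42 rose in males by 0.59 ± 0.12 (adjusted p = 0.0348) and had -0.05 ± 0.12 in females.

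Mitochondrial fatty acid oxidation genes had the same sign in both sexes. The diet effect was positive in 21 of 21 in females (median 0.14) and in 20 of 21 in males (median 0.32), and 20 of 21 differences were negative (median -0.15). Run 1 gave a median difference of -0.27 with 20 of 21 negative, whereas runs 2 and 3 gave 0.04 with 11 positive and 10 negative. In males 14 of 21 had a positive effect with an unadjusted p under 0.05, against 4.25% of all genes. The acyl-CoA dehydrogenase Acadl rose in males by 0.82 ± 0.16 (adjusted p = 0.0348) and Ech1, an isomerase of unsaturated fatty acids, by 0.74 ± 0.13 (adjusted p = 0.0105). Both had 0.24 in females, with SEs of 0.16 and 0.13, and differences of -0.58 ± 0.24 and -0.50 ± 0.19 that did not pass. Lists for fatty acid synthesis (medians -0.16 in females and -0.58 in males) and for breakdown of branched-chain amino acids (-0.06 and -0.15) were likewise of the same sign in both. Their differences had medians of 0.28 (run 1 0.69, runs 2 and 3 0.13) and 0.14 (run 1 0.16, runs 2 and 3 0.11). With replicates 1 and 4 of the females on 10% fat left out, the female median of the synthesis list was 0.33. In run 1 males the synthesis list had a median of -1.56 and the white adipocyte markers -1.28, with replicate 1 of the males on 10% fat highest in those markers (Adipoq 104 CPM, median of the 16 libraries 42.2 CPM), and without that library the male synthesis median was -0.47. The part of adipocytes in these values was not tested further. Within the list for branched-chain amino acids, Ivd and Mccc1, which act in leucine breakdown, fell in males by 0.51 and 0.50 on the log2 scale (adjusted p = 0.0105 for each) and had -0.08 and -0.15 in females.

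**Figure D4:**
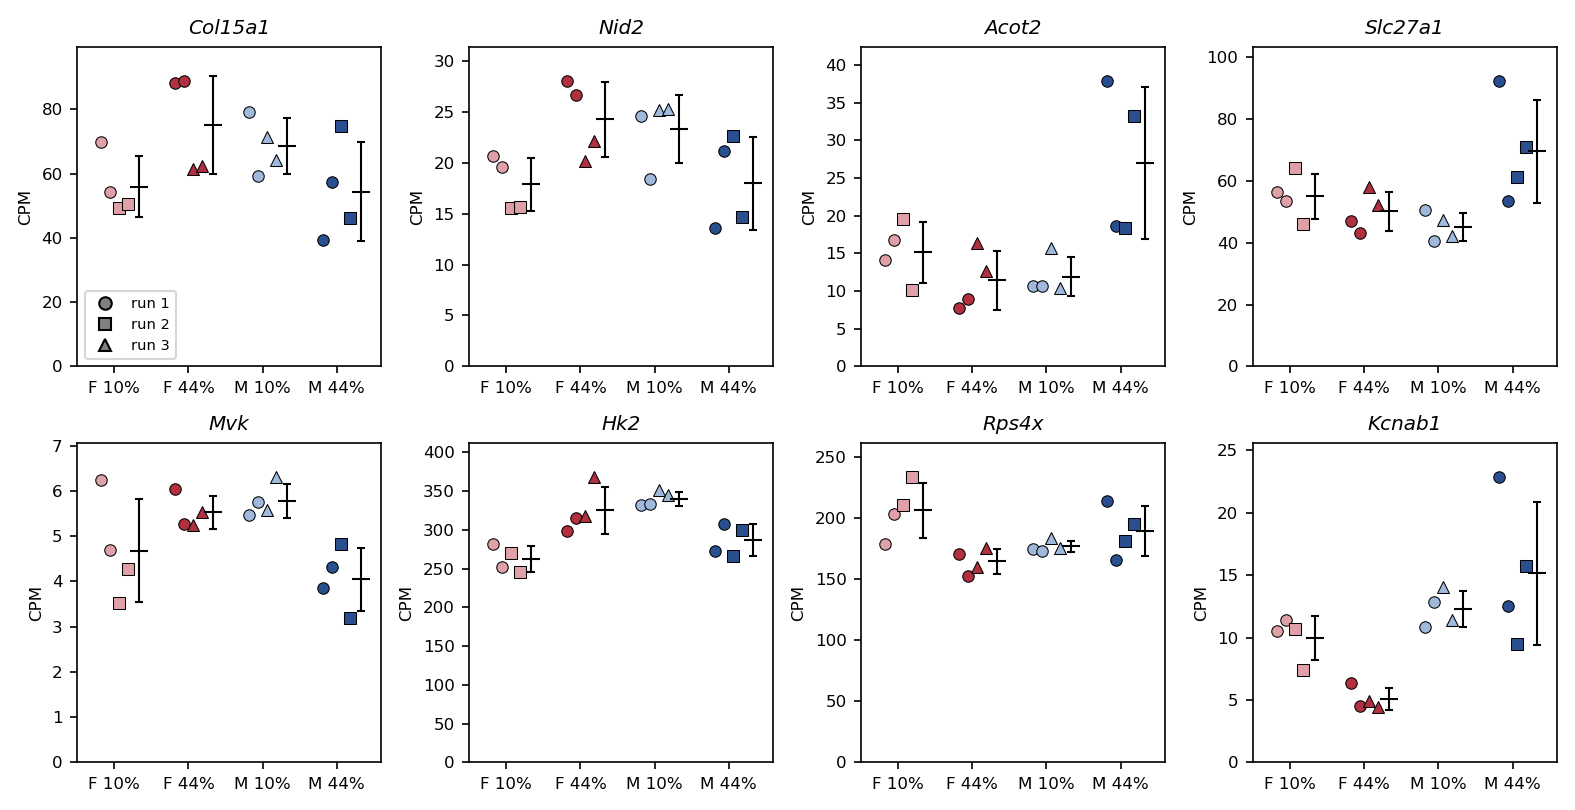
CPM of 8 genes in each of the 16 libraries, from zero, with the mean and SD of each group of 4 at its right and symbols for the run. Col15a1, Nid2, Mvk and Hk2 have their lower level in females on 10% fat and males on 44% fat, Acot2 and Slc27a1 are highest in males on 44% fat, and Kcnab1 is lowest in females on 44% fat (4.45 to 6.39 CPM).

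Among glucose and fibre genes, Hk2 and Myh1 separated the diets in every library of both sexes. Hk2, the hexokinase that traps glucose in muscle, was 281.5, 252.2, 269.9 and 245.1 CPM in females on 10% fat and 298.9, 314.8, 317.9 and 367.7 CPM on 44% fat. In males Hk2 was 331.7, 333.5, 350.6 and 344.6 CPM on 10% fat and 272.1, 307.5, 265.6 and 299.9 CPM on 44% fat. Every female on 44% fat thus lay above every female on 10% fat, and every male below. The difference was 0.66 ± 0.17 (adjusted p = 0.411), 0.40 from run 1 alone and 0.71 from runs 2 and 3. Libraries of the diets did not overlap for 4.15% of all genes in females (2.26% with all on 44% fat above) and for 3.95% in males (2.2% with all below). The 2 together, in opposite directions, held for 8 genes (0.0466%). Whether chance would give more or fewer was not tested, so the 8 genes are described only and not taken as a result. Beside Hk2 these were Myh1, Mbtd1, Heatr5a, Hoxc9, Fat3, the noncoding Snhg1 and the pseudogene Rps19-ps3, all but Hk2 named after their values were seen.

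Myh1, the myosin heavy chain of fast IIx fibres, was 4791, 6342, 6335 and 3809 CPM in females on 10% fat and 6893, 6502, 6525 and 9092 CPM on 44% fat. In males Myh1 was 5619, 5058, 6041 and 6110 CPM on 10% fat and 3871, 4941, 5041 and 4088 CPM on 44% fat. Its difference was 0.75 ± 0.26 (adjusted p = 0.563), while that of the neighbouring Myh4 was -0.22 ± 0.16. The difference of Myh1 was 0.57 from run 1 and 1.07 from runs 2 and 3. The fast-fibre list had medians near zero in both sexes, -0.01 and 0.03. Its median difference was -0.26 from run 1, with 3 of 15 positive, and 0.20 from runs 2 and 3, with 13 of 15 positive. The slow-fibre list had medians of 0.19 in females and -0.12 in males, and a difference of 0.19 with 11 of 15 positive (run 1 0.49, runs 2 and 3 0.24), but 7 of its 15 members had opposite signs, short of the rule. Fbp2, the muscle fructose bisphosphatase that opposes glycolysis, rose in males by 1.08 ± 0.23 (adjusted p = 0.0472) with a female effect of -0.21 ± 0.22 and a difference of -1.30 ± 0.33 (adjusted p = 0.356), -1.24 from run 1 and -0.94 from runs 2 and 3. Without replicate 2 of the males on 44% fat the difference of Fbp2 was -1.56 (adjusted p = 0.0256). Fbp2 stood between 31.3 and 33.9 CPM in males on 10% fat and at 117.1, 32.7, 52.2 and 75.4 CPM on 44% fat, where replicate 2 lay within the control range. The male call of Fbp2 was lost in 20 of 32 settings.

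Cholesterol synthesis genes were lower in males on 44% fat and near zero in females. Of 23 genes 22 were tested, with 0 called, 21 of 22 negative in males (median -0.31) and 14 of 22 positive in females (median 0.01). The difference was positive in 19 of 22, and 2 members had an unadjusted p under 0.05 (9.09%, against 6.46% of all genes). Mvk, the mevalonate kinase, was 6.24, 4.70, 3.52 and 4.27 CPM in females on 10% fat and 6.05, 5.28, 5.24 and 5.53 CPM on 44% fat. In males Mvk was 5.46, 5.75, 5.58 and 6.30 CPM on 10% fat and 3.86, 4.32, 4.83 and 3.19 CPM on 44% fat. All males on 44% fat lay below all on 10% fat, and the female groups overlapped through replicate 1 on 10% fat. The difference of Mvk was 0.84 ± 0.19 (adjusted p = 0.228), 0.51 from run 1 and 1.06 from runs 2 and 3. It was 1.02 without that female replicate (adjusted p = 0.0168) and 0.93 without replicate 3 of the males on 44% fat (adjusted p = 0.0433).

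Hmgcs1, an early enzyme of the pathway, had a difference of 0.47 ± 0.30, Cyp51, a sterol demethylase, 0.60 ± 0.31 and the kinase Pmvk 0.54 ± 0.29. From run 1 alone the list's median difference was 0.52 and from runs 2 and 3 it was 0.16. The rule for opposite signs held under 17 of 32 settings, the female median lying between -0.07 and 0.31 and the male one between -0.40 and -0.16.

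Of 16 cholesterol genes with a promoter window, 15 (93.8%) held CCAAT on either strand, against 37.9% of 27025 genes, and 15 held GGGCGG, against 35.9%. Neither was confined to this list: CCAAT was in 68.8% of the PPAR windows, 44.4% of the matrix windows and 33.3% of the ribosomal ones, and GGGCGG in 68.8%, 66.7% and 57.4%. TCACNCCAC, a form of the sterol response element, was in 1 cholesterol window (6.25%), that of Hmgcs1, against 1.22% of all. It was also in 1 of 16 PPAR windows (6.25%), and in 0 of the matrix and ribosomal ones. Mvk is shown for its 5 copies of CCAAT (4 read as ATTGG on this strand) in the 200 bases before the start, chr5:114444069-114444268, plus strand, and Hmgcs1 for the sterol element at chr13:119690181-119690291, plus strand, with the motifs in capitals.
Mvk: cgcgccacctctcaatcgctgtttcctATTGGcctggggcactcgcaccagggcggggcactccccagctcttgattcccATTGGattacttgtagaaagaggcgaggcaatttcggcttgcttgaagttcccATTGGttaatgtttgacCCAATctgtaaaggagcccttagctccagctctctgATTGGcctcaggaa
Hmgcs1: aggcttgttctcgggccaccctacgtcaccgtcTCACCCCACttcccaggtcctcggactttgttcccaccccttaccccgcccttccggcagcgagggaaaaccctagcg

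Ribosomal protein genes stood lower on 44% fat in females and slightly higher in males. All 71 were tested and 0 passed in either sex or in the difference. The diet effect was negative in 69 of 71 in females and positive in 62 of 71 in males, with medians of -0.19 and 0.06 for the large subunit and -0.24 and 0.04 for the small one. In females 51 of 71 had a negative effect with an unadjusted p under 0.05, against 6.42% of all genes. The difference was negative in 70 of 71, and 33 of 71 (46.5%, against 6.46% of all genes) had an unadjusted p under 0.05. In females all libraries on 44% fat lay below all on 10% fat for 21 of 71 genes (1.89% of all genes did so), and in males the reverse held for 1 (1.75%). These proteins have many processed pseudogenes, so their counts carry an uncertainty of assignment.

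Rps4x, a small-subunit protein encoded on the X chromosome, was 179.2, 203.2, 210.8 and 233.8 CPM in females on 10% fat and 170.9, 152.9, 160.0 and 175.6 CPM on 44% fat. In males Rps4x was 175.3, 173.1, 184.0 and 176.1 CPM on 10% fat and 214.3, 166.1, 181.5 and 195.6 CPM on 44% fat. The female groups did not overlap and the male groups did. Its effect was -0.30 ± 0.08 in females (adjusted p = 0.133) and 0.07 ± 0.08 in males, a difference of -0.37 ± 0.11 (adjusted p = 0.482), -0.35 from run 1 and -0.47 from runs 2 and 3. Rpsa, which also serves as a laminin receptor, had -0.27 ± 0.07 in females and 0.01 ± 0.07 in males, a difference of -0.28 ± 0.10. For Rpl10a, of the large subunit, the difference was -0.42 ± 0.13, and Rps28, Rps16, Rps24 and Rps20 had -0.51, -0.50, -0.40 and -0.37. Rpl8, Rpl22, Rplp0 and Rpl4 lay between -0.26 and -0.23.

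Run 1 alone gave medians of -0.33 and -0.36 for the large and small subunits, and runs 2 and 3 gave -0.24 and -0.29. The signs in the sexes were opposite under 30 and 29 of 32 settings. The small-subunit score was highest, 6.88, in replicate 4 of the females on 10% fat, the library with lymphocyte markers, which was left out in turn. Without it the median differences were -0.24 and -0.25 for the large and small subunits, and with replicates 1 and 4 of that group left out together they were -0.30 and -0.31.

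Promoter windows were found for 54 of the 71 ribosomal genes, and 38 of them (70.4%) held CTTCCG, against 17.2% of all genes. Rpsa has 3 copies in the 195 bases before its start, chr9:120127571-120127765, plus strand, with CTTCCG or its complement in capitals. Altogether 13 motifs were searched on both strands, chosen after the lists were seen. Among the ribosomal windows CTTTCC was in 46.3% (26.3% of all genes). CTCTTTC, which overlaps it in part, was in 25.9% (8.01% of all). For AAGATGGC the shares were 5.56% and 2.88%, for CATTCC 9.26% and 14.6%, for CACGTG 9.26% and 7.24%, and for GGGAGG, whose complement lies within CCCTCCC, 51.9% and 41.5%. A match is a description and does not show that a factor binds.
Rpsa: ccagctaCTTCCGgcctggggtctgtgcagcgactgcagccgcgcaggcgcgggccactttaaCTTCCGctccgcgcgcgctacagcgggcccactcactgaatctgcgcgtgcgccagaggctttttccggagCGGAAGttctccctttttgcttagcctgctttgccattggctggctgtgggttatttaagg

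Several genes outside these lists were among the 10 with the smallest p in each direction. Kcnab1, a regulatory subunit of voltage-gated potassium channels, was 10.498, 11.4, 10.7 and 7.42 CPM in females on 10% fat and 6.39, 4.55, 4.96 and 4.45 CPM on 44% fat, without overlap. It fell in females by 1.01 on the log2 scale (SE 0.20, adjusted p = 0.0338) and had 0.32 ± 0.20 in males, a difference of -1.34 ± 0.29 (adjusted p = 0.228), -1.53 from run 1 and -0.86 from runs 2 and 3. Without replicate 3 of the males on 44% fat the difference of Kcnab1 was -1.47 (adjusted p = 0.0409). The female call of Kcnab1 was lost in 15 of 32 settings. Nacc2, a transcriptional repressor, rose in females by 0.44 ± 0.08 (adjusted p = 0.0224), from 45.3 ± 3.46 to 60.5 ± 1.25 CPM (SD, n = 4), and stood at 56.996 ± 3.67 and 55.2 ± 4.49 CPM in males. Its difference was 0.51 ± 0.11 (adjusted p = 0.228), 0.40 from run 1 and 0.54 from runs 2 and 3.

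Otub2, a deubiquitinase, differed by 1.26 ± 0.28, with 6.50 ± 0.81 and 11.5 ± 1.58 CPM in females and 10.8 ± 2.58 and 8.48 ± 1.57 CPM in males. Dnm3, a dynamin, had -0.95 ± 0.21, Rfx3, a transcription factor of cilia genes, -0.92 ± 0.22, and Spns2, the exporter of sphingosine 1-phosphate, -1.04 ± 0.26. Eif4ebp1, the repressor of translation that mTORC1 releases, had -0.65 ± 0.16 (and -0.79 with adjusted p = 0.0364 without replicate 2 of the males on 44% fat), with 14.6 ± 0.75 and 11.7 ± 1.03 CPM in females and 18.9 ± 2.00 and 23.3 ± 3.597 CPM in males. The ubiquitin ligase Rnf126 had -0.58 ± 0.16, the iron reductase Steap3 0.57 ± 0.15 and Prrc1 0.45 ± 0.12. Their adjusted p ranged from 0.228 to 0.457.

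Within each sex few genes were called. In females 7 genes (0.0408%) passed and 1943 (11.3%) had an unadjusted p under 0.05. Nacc2, Vwa7, Nfe2l1, Rab40b and App (0.0291%) rose, and Cyfip2 and Kcnab1 (0.0117%) fell. App, the amyloid precursor, rose by 0.32 ± 0.06, Nfe2l1, a factor that induces proteasome genes, by 0.47 ± 0.09, and Vwa7 by 0.69 ± 0.13. Cyfip2, a regulator of actin, fell by 2.33 (SE 0.43, adjusted p = 0.0224), with -1.78 from run 1 alone. Its levels were 16.6, 7.30, 7.49 and 37.3 CPM in females on 10% fat and 2.32 to 5.10 CPM on 44% fat, against at most 2.25 CPM in any male. The highest value came from the library with lymphocyte markers, and without it the change was -1.65 (adjusted p = 0.218). In males 10 genes (0.0583%) passed and 1497 (8.72%) had an unadjusted p under 0.05. Rab15, Acot1, Ech1, Acadl, Fbp2, Slc25a42 and Crebbp (0.0408%) rose, and Mccc1, Ivd and Frzb (0.0175%) fell. Rab15, a small GTPase, rose by 1.46 ± 0.29, Crebbp, a histone acetyltransferase, by 0.40 ± 0.07, and Frzb, a secreted Wnt inhibitor, fell by 0.82. No gene was called in both sexes, but a call in 1 sex does not show that the other lacked the effect. Nfe2l1 had 0.24 ± 0.09 in males (adjusted p = 0.405) and Rab15 0.62 ± 0.29 in females (adjusted p = 0.409). App had 0.02 ± 0.06 in males and Crebbp 0.02 ± 0.07 in females. The calls rested on few libraries: leaving out 1 library gave 0 to 22 genes in females and 0 to 88 in males.

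The same 4 groups were also read as sex differences on each diet. Between females and males 537 genes (3.13%) were called on 10% fat and 959 (5.59%) on 44% fat, of which 281 were shared, all in the same direction. On 10% fat 188 (1.1%) were higher in females and 349 (2.03%) lower, and on 44% fat 414 (2.41%) and 545 (3.18%). Among the genes above, Kcnab1 was lower in females on 44% fat (-1.61, adjusted p = 7.45e-07) and had -0.27 on 10% fat (adjusted p = 0.529). Acot2 was lower in females on 44% fat by 1.30 (adjusted p = 0.00171) and had 0.39 on 10% fat. Col6a1 (0.51, adjusted p = 0.0168), Col15a1 (0.52, adjusted p = 0.0273) and Mvk (0.48, adjusted p = 0.0165) were higher in females on 44% fat. Hk2 was lower in females on 10% fat by 0.43 (adjusted p = 0.0334), with 0.24 on 44% fat (adjusted p = 0.278). The change in each of these sex differences is the diet-by-sex difference, which did not pass.

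The same contrast was computed in the other strains. In C57BL/6J and in CAST/EiJ 0 genes were called, with 913 (5.32%) and 689 (4.02%) at an unadjusted p under 0.05. Neither did any gene pass in the test of NZO/HlLtJ against C57BL/6J (1052 genes at an unadjusted p under 0.05, 6.13%) or against CAST/EiJ (827 genes, 4.82%). The matrix list had median differences of 0.66 in NZO/HlLtJ, 0.29 in C57BL/6J and -0.10 in CAST/EiJ. For the small ribosomal subunit the medians were -0.28, -0.02 and -0.03, for PPAR targets -0.63, -0.25 and 0.20, and for cholesterol synthesis 0.36, 0.03 and -0.13. Macrophage markers had 0.65, 0.28 and 0.38, positive in all 3 strains. The large ribosomal subunit had -0.25, -0.05 and -0.05, and the progenitor markers 0.03, -0.01 and 0.07. Since no gene passed the tests between strains, none of these patterns is called particular to NZO/HlLtJ.

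DESeq2, fitted with the same design, called 22 genes in the diet-by-sex difference, 5 higher and 17 lower. Of these, 8 were over 5 times higher in replicate 4 of the females on 10% fat than in any of the other 15 libraries, among them the immunoglobulin genes Ighg2c, Igkv1-135, Igkv1-110 and Igkv10-96, the B-cell gene Fcrla and the T-cell receptor component Cd3d. Ighg2c was 7.34 CPM in that library and 0 in the other 15. Of the remaining 14, 12 were among the genes named here (Acot2, Kcnab1, Mvk, Dnm3, Otub2, Nid2, Nacc2, Rfx3, Fbp2, Col15a1, Slc27a1 and Eif4ebp1), and the other two were Acot1 and Chrna2, a nicotinic receptor subunit at 0.32 to 1.43 CPM on average.

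**Figure D5:**
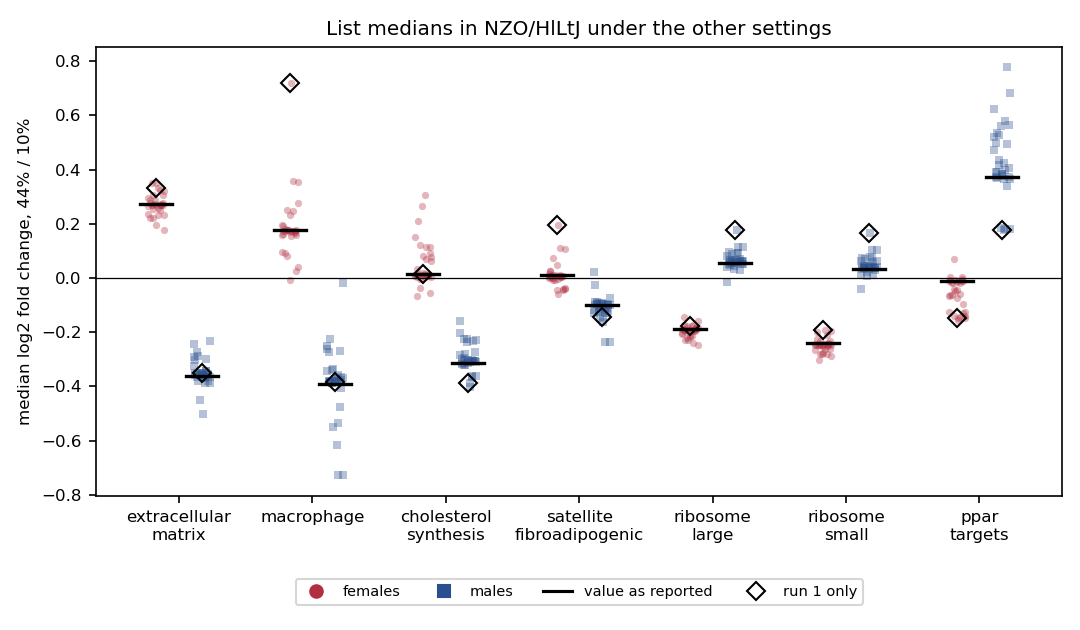
Median diet effect (log2 fold change, 44% against 10% fat) of 7 lists in females (red) and males (blue) under 32 other settings (faint points), as reported (bars) and from run 1 libraries alone (open diamonds). Matrix medians stay above zero in females and below it in males, while cholesterol and progenitor medians in females cross zero.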

How the data were processed

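RNA of gastrocnemius muscle was sequenced as polyA-selected libraries (KAPA mRNA HyperPrep, paired reads of 100 bases on a NovaSeq), per the labels' protocols. The authors deposited expected counts per gene, named on GRCm38, and the submitters' processing notes name DESeq2, with the aligner and counter not stated there. The deposited variance-stabilised table was not used. Of the deposited count values 81.2% were whole to within 1e-06, and all were rounded.

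All 47 libraries were fitted together with edgeR 4.0.16 (R 4.3.3): TMM factors, filterByExpr (17159 of 20796 genes kept), 12 strain, sex and diet groups and the 3 runs of sample numbers, with 33 residual degrees of freedom. Contrasts were tested by the quasi-likelihood F test with Benjamini-Hochberg adjustment over all genes tested, threshold 0.05. DESeq2 1.42.0 and limma 3.58.1 (voom) were alternatives, beside other scalings, filters, run terms, marker covariates and left-out libraries. CPM values use TMM-scaled library sizes, list scores are mean log2 CPM with a prior count of 2, and errors of log2 fold changes are standard errors. The fit was tested on simulated data.

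Named genes are protein-coding, reach a mean of 5 CPM in 1 group, and are the 10 with the smallest diet-by-sex p in each direction, up to 6 members of each list of opposite signs, and up to 3 called members of other lists; others were named after their values were seen. The members and lists were chosen with earlier results of these data known. Replicates of a group differed by more than counting noise (chi-square over degrees of freedom 13.9 to 145 in 24 pairs). Promoters are RefSeq sequences, credited to GRCm38.p6. Some named genes are not reported here.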

Additional observations from a re-analysis of the deposited data

Results flagged for a closer look

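Among 124 groups of 4 libraries screened (19 genes and 12 list scores in 4 groups), 6 held 1 library far from the other 3 by Dixon's test at the 95% level, where chance alone gives about 1 in 20. In males on 10% fat, Nid2 was 18.4 CPM in replicate 2 against 24.6 to 25.3 CPM in the others, Acot2 was 15.8 CPM in replicate 3 against 10.4 to 10.7 CPM, and Fbp2 was 31.3 CPM in replicate 2 against 33.5 to 33.9 CPM. In females on 44% fat, Acot1 was 2.56 CPM in replicate 3 against 0.647 to 0.843 CPM, and Myh1 was 9092 CPM in replicate 4 against 6502 to 6893 CPM. In females on 10% fat, the lymphocyte score was 4.03 in replicate 4 against -3.80 to -3.43 in the others, on the log2 scale.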

How the results depend on the processing

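The diet-by-sex difference gave 22 genes with DESeq2, 2 with replicates 1 and 4 of the females on 10% fat left out together, and 0 to 7 with 1 library left out. The diet effect in females gave 23 genes without the run term, 0 with a run effect of NZO/HlLtJ's own, 0 from NZO/HlLtJ libraries alone with or without the run term, 0 from run 1 alone and 101 with DESeq2. With marker scores as covariates it gave 0 (brown adipocyte), 11 (white adipocyte), 13 (lymphocyte) and 161 (macrophage, chosen after seeing the data, as was leaving out replicates 1 and 4 of the females on 10% fat together, which gave 0), and 0 to 22 with 1 library left out. In males the counts were 39 with a run effect of the strain's own, 0 from its libraries alone with or without the run term, 0 from run 1, 86 with DESeq2, 4 with limma voom, 5, 48 and 1 with the white adipocyte, lymphocyte and macrophage scores, 16 without the 2 females, and 0 to 88 with 1 library left out. The sex difference on 10% fat gave 277 genes with the strain's own run effect, 126 from its libraries with the run term, 120 from run 1, 855 with DESeq2, 843 with the slow-fibre score and 337 to 601 with 1 library left out. On 44% fat it gave 394 from the strain's libraries with the run term, 289 from run 1 and 405 to 1283 with 1 left out. From run 1 alone, where each C57BL/6J and CAST/EiJ group is 1 library assumed to vary like the pairs of NZO/HlLtJ libraries, C57BL/6J gave 337 genes, CAST/EiJ 19, NZO/HlLtJ against C57BL/6J 7 and against CAST/EiJ 1, and DESeq2 gave 8 and 9 in the last 2; leaving out 1 library gave 0 to 1 in CAST/EiJ. The progenitor median was 0.42 with the strain's own run effect and from its libraries with the run term, 0.41 from run 1, and -0.0569 to 0.186 with 1 library left out, the lowest without replicate 1 of the males on 44% fat. The macrophage median was 0.0805 with the macrophage score. That score is made from the same genes, so this fall was built in and is no check. The cholesterol median was 0.65 without the 2 females. Dpp4 reversed to 0.38, 0.37 and 0.37 with the strain's own run effect, from its libraries with the run term and from run 1, and the fatty acid synthesis median reversed to -0.0211 with the macrophage score. The cause was not tested. No paired analysis was possible because the replicate numbers follow accession order and pair no libraries. With 4 libraries a group, a gene's difference had a median standard error of 0.25.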

Other observations

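Actc1, the cardiac alpha-actin that muscle makes in development and regeneration, was 128.8, 129.1, 117.7 and 141.5 CPM in females on 10% fat and 45.0, 39.5, 31.6 and 30.3 CPM in females on 44% fat. In males it was 17.7, 35.04, 11.1 and 12.7 CPM on 10% fat and 28.3, 10.8, 4.96 and 12.3 CPM on 44% fat. The female groups stood far apart and the male groups overlapped, yet the adjusted p in females was 0.111. The diet effect was negative in both sexes, -1.68 ± 0.42 in females and -0.58 ± 0.42 in males. The diet-by-sex difference was -1.10 ± 0.60 (adjusted p = 0.821). Run 1 gave -1.10 for this difference and runs 2 and 3 gave -1.46. Myh3, the embryonic myosin, had the reverse order in females, 4.84 to 7.86 CPM on 10% fat and 8.53 to 13.6 CPM on 44% fat. Both genes were picked after their values were seen.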
